A study of Drosophila melanogaster with 12 samples.

Results

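The nuclear genes for proteins of the mitochondrial ribosome were followed in progenitor cells of the adult Drosophila midgut, with and without RNA interference against trithorax (trx), a histone methyltransferase gene. Members were all genes whose symbol begins with mRpL (large subunit) or mRpS (small subunit) and that had a deposited value of at least 10 in at least 3 of the 12 libraries. That gave 72 genes, 47 with mRpL and 25 with mRpS symbols, of 8399 genes that passed the same filter and 17617 listed. All 72 listed genes with such symbols passed, and the weakest of them still had a third-highest value of 68, so none lay close to the filter. Membership therefore rested on the gene symbol, and the value filter removed none. The gene family itself was chosen with earlier results of these data known.

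The mitochondrial ribosome translates the few proteins that mitochondrial DNA encodes, all of them core subunits of the respiratory chain and ATP synthase. All of its proteins are encoded in the nucleus and imported, and they assemble on ribosomal RNAs made inside the organelle. Some descend from bacterial ribosomal proteins, and others were added during the evolution of mitochondria and have no bacterial counterpart. In the midgut, intestinal stem cells and their enteroblast daughters form the progenitor pool that renews absorptive enterocytes and hormone-secreting enteroendocrine cells.

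The 12 libraries formed 4 groups of 3, all from mated females that were 3 to 4 days old when moved to 29 °C for 7 days. The trxRNAi DSS group was the cross of esgtsGFP to UAS-trxRNAi (BDSC#33703) and was fed 3% dextran sulfate sodium (DSS), which injures the gut epithelium, during the final 48 h. The control DSS group was esgtsGFP crossed to w1118 under the same feed. The trxRNAi sucrose and control sucrose groups were the same crosses given 5% sucrose over those 48 h. All flies of both genotypes carried the esgtsGFP driver, which is active in progenitors and is held off by temperature-sensitive Gal80 until the shift, and GFP-positive cells were sorted from intestines. RNA was read from its 3′ ends, so values between genes do not scale with transcript length. The labels do not say whether replicate libraries came from separate sets of flies, so p-values measure the spread between these libraries. In such bulk libraries, fewer cells of a type and less RNA per cell cannot be told apart.

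Value totals per library ranged from 5362337 to 6520981, and 10147 to 11213 genes had a value above 0. The targeted gene trx had values of 715, 758 and 808 in trxRNAi DSS libraries, against 841, 1041 and 652 in control DSS libraries. Its values were 668, 667 and 448 in trxRNAi sucrose libraries, against 1114, 1217 and 1313 in control sucrose libraries. It was lower in trxRNAi under sucrose by a log2 difference of -1.05 ± 0.19 (standard error, limma adjusted p = 0.00356). Under DSS the groups overlapped, with a log2 difference of -0.13 (95% confidence interval -0.53 to 0.28, limma adjusted p = 0.772), so the DSS groups are named as labelled. The 5 progenitor markers analysed (Sox21a, mira, klu, Sox100B and E(spl)mbeta-HLH) were above 0 in every library. They summed to between 5462 and 8519, with E(spl)mbeta-HLH the largest single part in each library. Of the 5 markers, mira separated the DSS groups, with 237, 248 and 251 in trxRNAi DSS libraries, against 1557, 1317 and 652 in control DSS libraries. Delta and escargot were not analysed here. The 5 enteroendocrine markers (pros, AstC, Tk, NPF and IA-2) summed to 1971, 2651 and 2948 in trxRNAi DSS libraries, against 18260 to 21724 in control DSS libraries. They summed to 4077, 4908 and 5657 in trxRNAi sucrose libraries, against 14628 to 22640 in control sucrose libraries. Within this list pros went the other way under sucrose, with 1021, 853 and 1256 in trxRNAi sucrose libraries, against 508, 402 and 300 in control sucrose libraries. The 7 enterocyte markers summed to 3152 to 3472 in trxRNAi DSS libraries, against 3709 to 8962 in control DSS libraries. Their sums were 2921 to 5218 in trxRNAi sucrose libraries, against 3090 to 9292 in control sucrose libraries. The 4 visceral muscle markers summed to at most 52 and the 3 hemocyte markers to at most 9, with all 3 hemocyte markers at 0 in every trxRNAi DSS library. The enteroendocrine sums ran with genotype without overlap, and the part of these other cell types in the values below was not tested.

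The 72 members together held 0.252 ± 0.0135% of the library total in trxRNAi DSS, against 0.235 ± 0.0404% in control DSS (SD, n = 3 each). They held 0.238 ± 0.0099% in trxRNAi sucrose, against 0.207 ± 0.034% in control sucrose (SD, n = 3 each). The mean value over 12 libraries had a median of 142 across members, with 18 members under 100, 47 from 100 to 300 and 7 over 300. The highest was mRpL55, a large-subunit protein with no bacterial counterpart, at 1171 (972 to 1347 over libraries). Below it came mRpL33, the counterpart of bacterial L33, at 573, and mRpL12, the counterpart of the bacterial stalk protein L7/L12 that engages translation factors, at 557. These last 2 did not separate, since mRpL33 ranged over libraries from 449 to 702 and mRpL12 from 321 to 802. At the other end stood mRpL10, which anchors the stalk in bacteria, at 56.9, the small-subunit protein gene mRpS33 at 58.1, and mRpL9 at 61.6. Their library values ran from 39 to 74, from 29 to 116 and from 37 to 93, so their order is not resolved. The counterparts of the stalk base and the stalk protein thus lay at the low and the high end of the members.

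Members were spread over the chromosome arms, with 12 on 2L, 12 on 2R, 16 on 3L, 21 on 3R and 11 on X. In the Ensembl annotation of the assembly, 43 members overlapped another gene, 42 of them one on the opposite strand, 3 one on the same strand and 29 none. No source used here states whether counting used strand, so reads from a member and its antisense partner cannot be told apart where they overlap. mRpL13 and mRpL53 overlapped CG10602 and CG33155 on their own strand by 1221 and 1470 bases, and their values are uncertain for that reason. The remaining same-strand overlap was that of mRpS14 with CG32533, by 30 bases. Over the same 1470 bases mRpL53 also overlapped AGO1 on the opposite strand. AGO1 had library values of 4180 to 7061, and its part in the values of mRpL53 was not tested.

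Members varied together from library to library. Within the 4 groups, the deviation of a member from its group mean was correlated with the median deviation of the other members. The median r over 12 libraries was 0.707, and r was above 0 for 67 of 72 members. This is a description, since members share each library's preparation and scaling. Other genes were not given an r, and the part of single libraries in it was not tested. The highest r belonged to mRpL40 (0.954) and mRpL48 (0.95), and the 5 members below 0 were mRpL55 and mRpL21 (both -0.277), mRpS31 (-0.067), mRpS25 (-0.042) and mRpS28 (-0.022). Relative spread also differed between members. The coefficient of variation within groups, averaged over the groups, was lowest for mRpS31 (8.6%), mRpS29 (9.23%) and mRpL55 (9.31%), had a median of 18.2%, and was highest for mRpL14 (36.9%).

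**Figure D1:**
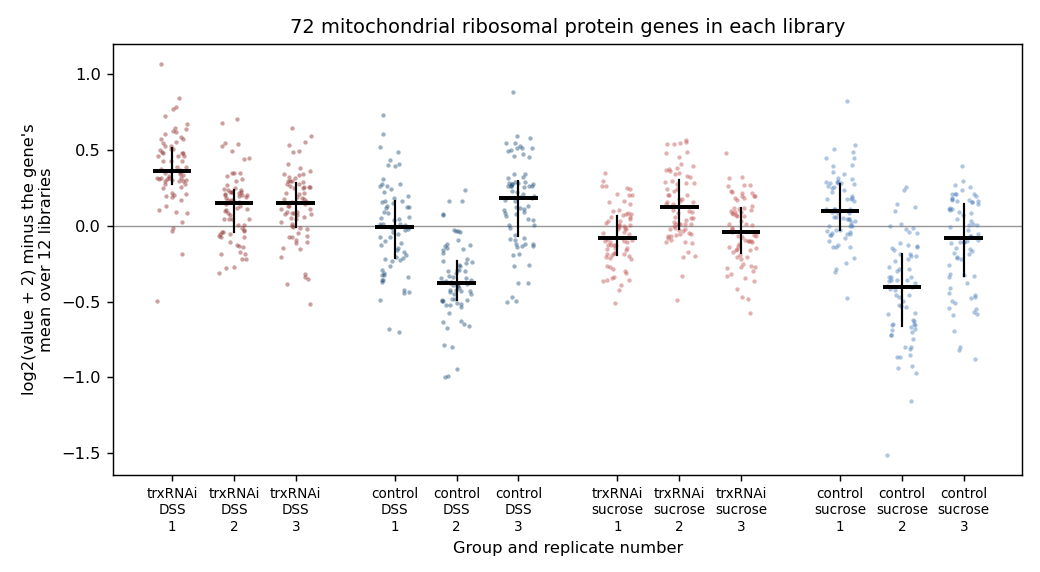
Each point is one of the 72 members in one library, as log2(value + 2) minus that gene's mean over the 12 libraries; the thick bar is the median and the thin bar the interquartile range. The control replicate 2 libraries sit lowest, with medians of -0.376 under DSS and -0.402 under sucrose, and trxRNAi DSS replicate 1 sits highest at 0.363.

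A pair of control libraries stood apart for these genes. The median deviation of the members was -0.376 in control DSS replicate 2 and -0.402 in control sucrose replicate 2, while it was -0.007 and 0.185 in the other control DSS libraries and 0.096 and -0.083 in the other control sucrose libraries. It was 0.363, 0.147 and 0.146 in trxRNAi DSS libraries and -0.085, 0.122 and -0.042 in trxRNAi sucrose libraries. The same medians over all 8399 tested genes lay between 0.009 and 0.022 in every library. Of the 72 members, 53 had the lowest of their 3 control DSS values in replicate 2 and 56 had the lowest of their 3 control sucrose values in replicate 2, against 34.7% of all tested genes in either library. In these libraries, 12 (control DSS) and 8 (control sucrose) of the whole numbers from 1 to 50 were the value of no gene, which is what multiplying whole reads by a factor above 1 leaves, and at most 4 were missing in any other library. Whether read number had a part in the low values was not tested. The main results that involve control libraries are therefore given below with and without these, and the single genes for which the values without them are not printed rest on all 3 libraries.

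The comparison of the libraries labelled trxRNAi and control under DSS addresses the regenerating gut. Most members had higher values in trxRNAi DSS than in control DSS libraries, but few differences were larger than the spread between libraries. mRpL19, mRpS31 and mRpS29 rose in trxRNAi, and no member fell (limma, Benjamini-Hochberg adjusted p under 0.05 over all tested genes). Over all tested genes 9.44% were called in either direction and 3.82% were called higher, so 3 of 72 is close to the background. At an unadjusted limma p under 0.05, 17 members were higher and none was lower, where 10.7% of all genes were higher and 11.7% lower. In 19 members every trxRNAi DSS value exceeded every control DSS value and in none was it the reverse, where over all genes 12.2% did the first and 13.3% the second. The log2 difference was above 0 for 61 of 72 members with a median of 0.289, where all tested genes had a median of -0.006 and 49.4% above 0. Without control DSS replicate 2 the members' median was 0.119 and mRpL19 was the 1 member called. Without both control replicate 2 libraries 52 of 72 members were above 0, where 4155 of all 8399 genes were.

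mRpL19 (FBgn0037608, chromosome 3R, 8674109 to 8675196, plus strand, dm6) is the counterpart of bacterial L19, which lies at the interface between the ribosomal subunits. Its values were 338, 274 and 284 in trxRNAi DSS libraries, against 178, 149 and 144 in control DSS libraries. The lowest trxRNAi value was well above the highest control value. The log2 difference was 0.92 ± 0.22 (standard error, limma adjusted p = 0.0106), and it was 0.89 without control DSS replicate 2 (limma adjusted p = 0.0355). Leaving out trxRNAi DSS replicate 1 ended the call (limma adjusted p = 0.0518), the only left-out library of 12 to do so.

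mRpS31 (FBgn0036557, chromosome 3L, 16005193 to 16006599, plus strand) encodes a small-subunit protein with no bacterial counterpart. It had values of 226, 249 and 279 in trxRNAi DSS libraries, against 195, 151 and 152 in control DSS libraries, without overlap. Its log2 difference was 0.60 ± 0.17 (standard error, limma adjusted p = 0.0364), and the call was lost in 5 of 12 left-out libraries, with the highest adjusted p, 0.154, without trxRNAi DSS replicate 3. mRpS29 (FBgn0034727, chromosome 2R, 22418937 to 22420376, minus strand) encodes a GTP-binding small-subunit protein known in human as DAP3. It had values of 288, 251 and 249 in trxRNAi DSS libraries, against 190, 158 and 185 in control DSS libraries, again without overlap. Its log2 difference was 0.56 ± 0.17 (standard error, limma adjusted p = 0.0439), and the call was lost in 9 of 12 left-out libraries, with adjusted p up to 0.151 without trxRNAi DSS replicate 1. Without both control replicate 2 libraries the differences of mRpS31 and mRpS29 were 0.54 and 0.48, with limma adjusted p of 0.124 and 0.153.

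The largest difference under DSS belonged to mRpL14, the counterpart of bacterial L14, but it was uncertain. mRpL14 had values of 96, 117 and 105 in trxRNAi DSS libraries, against 73, 36 and 62 in control DSS libraries, a log2 difference of 0.93 ± 0.40 (standard error, limma adjusted p = 0.173). mRpS25, a small-subunit protein gene with no bacterial counterpart, had 181, 181 and 167 in trxRNAi DSS libraries, against 124, 102 and 90 in control DSS libraries. Its groups did not overlap, and its log2 difference of 0.74 ± 0.23 just missed the threshold (standard error, limma adjusted p = 0.0555). mRpL2, whose bacterial counterpart lies near the peptidyl transferase centre, had 436, 273 and 324 in trxRNAi DSS libraries, against 199, 198 and 241 in control DSS libraries, with a log2 difference of 0.67 ± 0.21 (standard error, limma adjusted p = 0.058). Once both control replicate 2 libraries were left out, the log2 differences were 0.64 for mRpL14, 0.73 for mRpS25 and 0.62 for mRpL2 (limma adjusted p of 0.433, 0.119 and 0.137). The largest negative differences were those of mRpS18A (-0.35, limma adjusted p = 0.542), mRpL21 (-0.27, 0.611) and mRpS23 (-0.19, 0.772), all within the spread between libraries. The difference of mRpS23 changed sign, to 0.013, without control DSS replicate 1. mRpL55, the most abundant member, had 1137, 998 and 1077 in trxRNAi DSS libraries, against 1175, 1302 and 972 in control DSS libraries, and these overlapped.

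**Figure D2:**
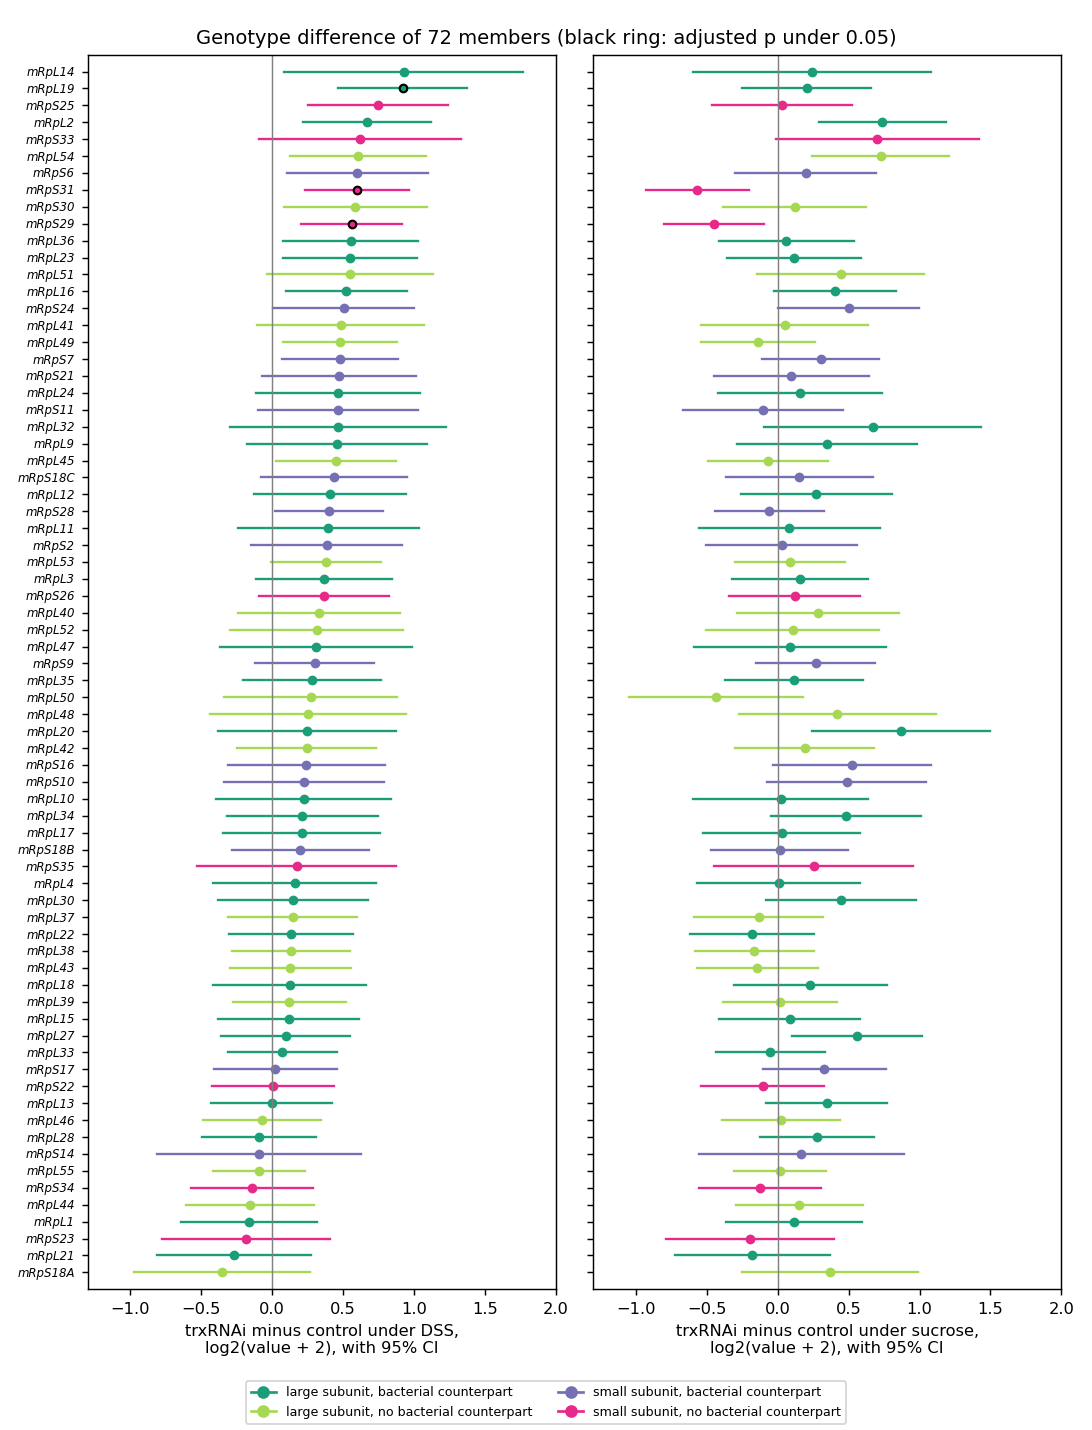
Log2 difference of value plus 2 between trxRNAi and control for each of the 72 members, under DSS on the left and under sucrose on the right, with 95% confidence intervals from limma and a black ring where the adjusted p was under 0.05. The 3 ringed members, mRpL19, mRpS31 and mRpS29, are all under DSS and all positive, and 61 of 72 points in the left panel lie to the right of 0. Without both control replicate 2 libraries, which are included here, 52 of 72 did.

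Under sucrose, the comparison of genotypes addresses the unchallenged gut. No member passed the threshold in limma, where 4.68% of all tested genes did. At an unadjusted limma p under 0.05, 5 members were higher in trxRNAi and 2 were lower, where 9.27% of all genes were higher and 9.07% lower. Groups did not overlap for 6 members with higher and 3 with lower values in trxRNAi sucrose, and for 11.7% of all genes in either direction, so the members' shares are below the background. The median log2 difference was 0.119 with 56 of 72 above 0, where all tested genes had a median of 0.015 and 51.7% above 0. Without control sucrose replicate 2 the members' median was -0.010. Without both control replicate 2 libraries 34 of 72 members were above 0, where 4320 of all 8399 genes were.

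mRpL20, the counterpart of a bacterial protein needed to assemble the large subunit, had the largest positive difference under sucrose. Its values were 92, 126 and 104 in trxRNAi sucrose libraries, against 93, 44 and 46 in control sucrose libraries, so that control replicate 1 exceeded the lowest trxRNAi value and the others lay well below it. Its log2 difference was 0.87 ± 0.30 (standard error, limma adjusted p = 0.108). mRpL2 had 306, 372 and 274 in trxRNAi sucrose libraries, against 244, 156 and 174 in control sucrose libraries, with a log2 difference of 0.74 ± 0.21 (standard error, limma adjusted p = 0.0574). mRpL54, a large-subunit protein gene with no bacterial counterpart, had 225, 274 and 226 in trxRNAi sucrose libraries, against 154, 98 and 200 in control sucrose libraries, with a log2 difference of 0.73 ± 0.23 (standard error, limma adjusted p = 0.081). Neither gene's groups overlapped under sucrose, and both had similar values under DSS, where mRpL54 had 267, 219 and 218 in trxRNAi DSS libraries, against 145, 137 and 180 in control DSS libraries. When both control replicate 2 libraries were left out, the log2 differences under sucrose were 0.68 for mRpL20, 0.61 for mRpL2 and 0.45 for mRpL54 (limma adjusted p of 0.296, 0.207 and 0.295). The interaction term was -0.07 for mRpL2 (limma adjusted p = 0.94) and -0.12 for mRpL54 (limma adjusted p = 0.893).

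The 3 members with the largest negative differences under sucrose were mRpS31, mRpS29 and mRpL50. mRpS31 had 173, 157 and 148 in trxRNAi sucrose libraries, against 237, 237 and 234 in control sucrose libraries, with a log2 difference of -0.56 ± 0.17 (standard error, limma adjusted p = 0.0741). mRpS29 had 185, 215 and 193 in trxRNAi sucrose libraries, against 304, 263 and 246 in control sucrose libraries, with a log2 difference of -0.45 ± 0.17 (standard error, limma adjusted p = 0.146). mRpL50, a large-subunit protein gene with no bacterial counterpart, had 70, 50 and 62 in trxRNAi sucrose libraries, against 77, 76 and 94 in control sucrose libraries, with a log2 difference of -0.44 ± 0.29 (standard error, limma adjusted p = 0.476). In all 3 the groups did not overlap, but none passed the threshold. Without both control replicate 2 libraries the log2 differences were -0.56 for mRpS31, -0.47 for mRpS29 and -0.49 for mRpL50.

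**Figure D3:**
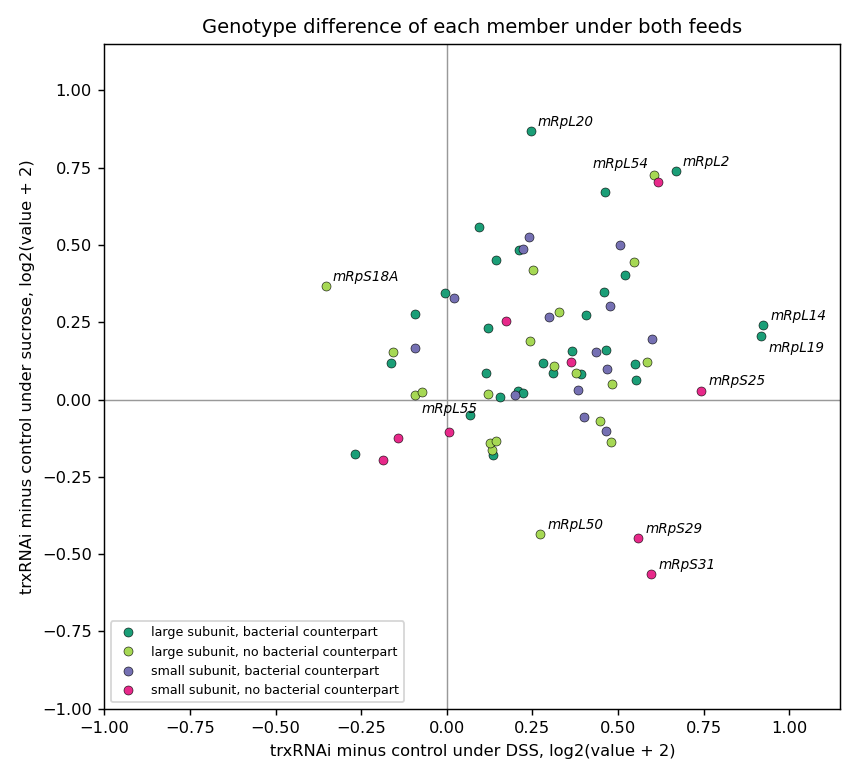
Log2 difference of value plus 2 between trxRNAi and control for each of the 72 members under DSS (horizontal) and under sucrose (vertical), coloured by subunit and bacterial counterpart. mRpS31 (0.60 and -0.56) and mRpS29 (0.56 and -0.45) lie apart at the lower right, while mRpL2 (0.67 and 0.74) and mRpL54 lie at the upper right.

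The effect of the feed within trxRNAi libraries addresses the response of cells of that genotype to the injuring feed. mRpS31 was the 1 member that passed, being higher under DSS, with values of 226, 249 and 279 in trxRNAi DSS libraries, against 173, 157 and 148 in trxRNAi sucrose libraries. Its log2 difference was 0.65 ± 0.17 (standard error, limma adjusted p = 0.0455). Over all genes 3.55% were called in either direction and 0.964% were called higher, so 1 of 72 is near the background. That call was lost in 9 of 12 left-out libraries, with adjusted p up to 0.215 without trxRNAi DSS replicate 3. At an unadjusted limma p under 0.05, 6 members were higher under DSS and none was lower, where 5.08% of all genes were higher and 7.5% lower. In 15 members every trxRNAi DSS value exceeded every trxRNAi sucrose value and in none was it the reverse, against 9.67% and 11.4% of all genes. The median log2 difference was 0.198 with 58 of 72 above 0, where all genes had a median of 0.001 and 4203 of 8399 above 0. This comparison uses control libraries only for the estimate of the spread, and without both control replicate 2 libraries mRpS31 had a limma adjusted p of 0.0554 while mRpL19 passed.

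mRpL19 had values of 338, 274 and 284 in trxRNAi DSS libraries, against 198, 185 and 149 in trxRNAi sucrose libraries, a log2 difference of 0.75 ± 0.22 (standard error, limma adjusted p = 0.0699, and 0.0297 without both control replicate 2 libraries). mRpL23, whose bacterial counterpart sits at the exit of the peptide tunnel, had 310, 274 and 233 in trxRNAi DSS libraries, against 159, 196 and 177 in trxRNAi sucrose libraries. Neither gene's groups overlapped, and the log2 difference of mRpL23 was 0.61 ± 0.22 (standard error, limma adjusted p = 0.197). The lowest differences were those of mRpL1 (-0.32, limma adjusted p = 0.658), mRpL55 (-0.21, 0.681) and mRpL44 (-0.14, 0.893). That of mRpL44, a large-subunit protein gene related to ribonuclease III, changed sign without trxRNAi sucrose replicate 2 or trxRNAi DSS replicate 3.

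In control libraries no member passed the threshold between feeds in limma, where 3.08% of all tested genes did. At an unadjusted limma p under 0.05, 3 members were higher under DSS and 2 were lower, fewer than the 7.36% and 7.08% of all genes. Groups did not overlap for 2 members with higher values (mRpL28 and mRpL27) and 2 with lower values (mRpS29 and mRpS31) in control DSS, against 7.97% and 8.17% of all genes. The median log2 difference was 0.060, where all genes had 0.016. It was -0.117 without control sucrose replicate 2 and 0.223 without control DSS replicate 2, so its direction depends on which of these libraries is kept. Without both it was 0.076.

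mRpL28, the counterpart of bacterial L28, had 379, 264 and 412 in control DSS libraries, against 262, 228 and 194 in control sucrose libraries. Its log2 difference was 0.61 ± 0.19 (standard error, limma adjusted p = 0.108), and without control DSS replicate 2 it was 0.80 and passed (limma adjusted p = 0.035). Once both control replicate 2 libraries were left out, it did not pass (limma adjusted p = 0.0843). Larger fitted differences that did not pass were those of mRpL32 (0.68, limma adjusted p = 0.415) and mRpS18A (0.66, 0.29). The lowest were those of mRpS29 (-0.60 ± 0.17, standard error, limma adjusted p = 0.0638), mRpS31 (-0.51 ± 0.17, 0.138) and mRpL49 (-0.36, 0.414). For mRpS29 the values were 190, 158 and 185 in control DSS libraries, against 304, 263 and 246 in control sucrose libraries. For mRpS31 they were 195, 151 and 152 in control DSS libraries, against 237, 237 and 234 in control sucrose libraries.

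The interaction term asks whether the difference between genotypes under DSS differed from that under sucrose. It passed the threshold for 2 members, both encoding small-subunit proteins with no bacterial counterpart, and both were positive. Over all genes 8.86% were called in either direction and 3.61% were called higher, so 2 of 72 is close to the background. mRpS31 had an interaction of 1.16 ± 0.24 (standard error, 95% confidence interval 0.65 to 1.68, limma adjusted p = 0.00505), and mRpS29 had 1.01 ± 0.24 (standard error, 95% confidence interval 0.51 to 1.51, limma adjusted p = 0.0116). At an unadjusted limma p under 0.05, 5 members were higher and none was lower, where 9.74% of all genes were higher and 11.0% lower. The others were mRpL19 (0.71, limma adjusted p = 0.182), mRpS25 (0.71, 0.225) and mRpL49 (0.62, 0.194). The lowest were those of mRpS18A (-0.72, limma adjusted p = 0.357), mRpL20 (-0.62, 0.457) and mRpL27 (-0.46, 0.442). The median over members was 0.128, where all genes had -0.013, and it changed sign, to -0.095 with all genes at -0.228, when libraries were rescaled to equal totals. When both control replicate 2 libraries were left out, it was 0.130.

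In mRpS31 and mRpS29 the groups fell into 2 levels. The trxRNAi DSS and control sucrose libraries of mRpS31 held values of 226 to 279 and 234 to 237, while its control DSS and trxRNAi sucrose libraries held 151 to 195 and 148 to 173. The higher 2 groups of mRpS29 held 249 to 288 in trxRNAi DSS and 246 to 304 in control sucrose, while its control DSS and trxRNAi sucrose libraries held 158 to 190 and 185 to 215. For both genes every value of the higher pair of groups exceeded every value of the lower pair. This is a description, since both genes were picked by their interaction. The share of all tested genes with such a split was not counted. Both interaction calls held without each of the 12 libraries in turn, with adjusted p of at most 0.0201 for mRpS31 and at most 0.038 for mRpS29. Without both control replicate 2 libraries they were 1.10 for mRpS31 (limma adjusted p = 0.0257) and 0.95 for mRpS29 (limma adjusted p = 0.0443). mRpS31 overlapped mib1 on the opposite strand by 48 bases, and mRpS29 overlapped qkr58E-2 on the opposite strand by 65 bases. The values of mib1 were 62, 84 and 106 in trxRNAi DSS, 84, 86 and 79 in control DSS, 92, 87 and 93 in trxRNAi sucrose, and 107, 77 and 97 in control sucrose libraries. Those of qkr58E-2 were 297, 273 and 309 in trxRNAi DSS, 325, 264 and 405 in control DSS, 288, 318 and 318 in trxRNAi sucrose, and 248, 222 and 279 in control sucrose libraries. The mib1 values of the groups where mRpS31 was higher overlapped those of the groups where it was lower. The means of qkr58E-2 were 293.0 (trxRNAi DSS), 331 (control DSS), 308.0 (trxRNAi sucrose) and 249.7 (control sucrose), lower in the 2 groups where mRpS29 was higher. The trxRNAi DSS values of qkr58E-2 overlapped those of every other group. The part of reads from these partners was not tested. The interaction of trx itself was 0.92 ± 0.27 (standard error, limma adjusted p = 0.0416), a call lost in 8 of 12 left-out libraries, with adjusted p up to 0.115 without trxRNAi sucrose replicate 3.

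**Figure D4:**
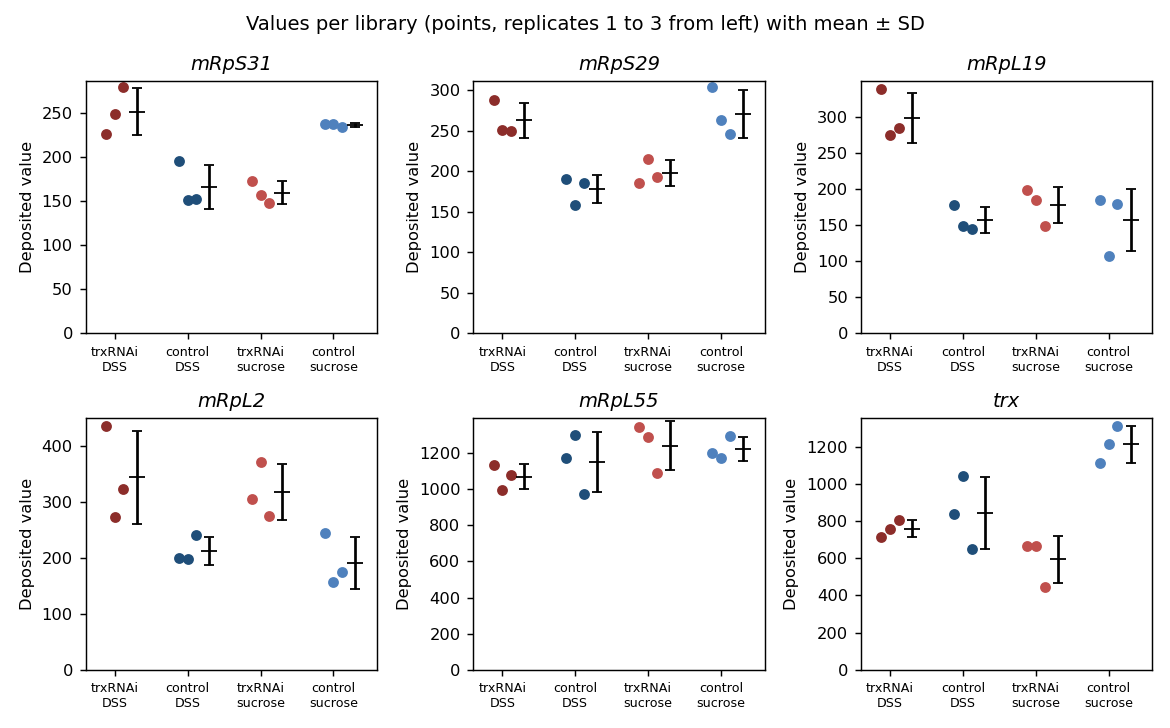
Deposited values in each library (points, replicates 1 to 3 from left in each group) with mean ± SD (n = 3) for 5 members and trx, on linear axes from 0. mRpS31 and mRpS29 are high in trxRNAi DSS and control sucrose and low in the other groups, and mRpL19 is high in trxRNAi DSS. mRpL2 has higher values in both trxRNAi groups but passed the threshold between genotypes under neither feed, and the groups of mRpL55 overlap.

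By role, the 29 large-subunit members with a bacterial counterpart had a median log2 difference between genotypes of 0.245 under DSS, with 1 called higher, and 0.159 under sucrose. The 20 large-subunit members listed with none had 0.262 under DSS and 0.068 under sucrose, with none called. They include mRpS30 and mRpS18A since their human counterparts sit in the large subunit. The place of mRpS18A in this list is uncertain, since mRpS18B and mRpS18C were listed with a bacterial counterpart. The 14 small-subunit members with a bacterial counterpart had 0.392 under DSS and 0.182 under sucrose, with none called. The 9 small-subunit members with none had 0.362 under DSS, with 2 called higher, and -0.106 under sucrose. All tested genes had medians of -0.006 under DSS, with 3.82% called higher, and 0.015 under sucrose. Differences between the roles were not tested. Once both control replicate 2 libraries were left out, the medians under DSS were 0.085 and 0.084 for large-subunit members with and without a bacterial counterpart, and 0.232 and 0.203 for small-subunit members with and without one. Under sucrose they were then 0.015 and -0.051 for the large subunit and 0.113 and -0.184 for the small subunit. mRpL19 under DSS was then the 1 call, where 220 of all 8399 genes were called higher. The 95% confidence interval of a single member reached 0.495 to either side in the median (0.323 to 0.84), so most single differences of the size of these medians were not detectable with 3 libraries a group.

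The 86 cytosolic ribosomal protein genes, which build the ribosome of the cytoplasm, had a different pattern of medians. Between genotypes their median log2 difference was 0.396 under DSS, with 31 called higher, where 3.82% of all genes were. Under sucrose it was -0.119 with none called, where 4.68% of all genes were called in either direction. Between feeds in trxRNAi the median was 0.189, with 1 called higher, where 0.964% of all genes were. In control it was -0.328, with 8 called lower, where 1.36% of all genes were called lower. The interaction had a median of 0.475 with 26 called higher, where 3.61% of all genes were. When both control replicate 2 libraries were left out, the medians were 0.441 between genotypes under DSS (27 called higher) and -0.132 under sucrose. They were -0.399 between feeds in control (1 called lower) and 0.577 for the interaction (14 called higher). Of all 8399 genes, 220 were then called higher between genotypes under DSS. Between feeds in control 44 were called lower, and 213 were called higher for the interaction. For the mitochondrial members the medians were 0.289 between genotypes under DSS and 0.119 under sucrose, 0.198 between feeds in trxRNAi and 0.060 in control, and 0.128 for the interaction. The cytosolic medians kept their sign under 3 rescalings, with -0.027 under sucrose and 0.252 for the interaction when totals were set equal. The difference between the gene families was not tested.

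Genes that serve the mitochondrial ribosome were described from lists of its remaining proteins, of aminoacyl-tRNA synthesis, of translation factors, and of mitochondrial DNA and RNA maintenance. Of the 2 small-subunit genes with other symbols, tko, which encodes the counterpart of bacterial S12, had 138, 115 and 111 in trxRNAi DSS libraries, against 117, 61 and 86 in control DSS libraries (log2 difference 0.50, limma adjusted p = 0.337). For bonsai, the counterpart of bacterial S15, the log2 difference under DSS was 0.27 (limma adjusted p = 0.626), and without both control replicate 2 libraries it was -0.01, with 0.26 for tko. None of the 18 aminoacyl-tRNA synthesis genes tested passed in any of the 5 comparisons. Their median log2 difference between genotypes was 0.363 under DSS, with 17 of 18 above 0, and 0.076 under sucrose. Without both control replicate 2 libraries it was 0.161 under DSS, with 16 of 18 above 0, and -0.001 under sucrose. GatA, a subunit of the amidotransferase that makes glutaminyl-tRNA, had the smallest p under DSS, with 123, 73 and 68 in trxRNAi DSS libraries, against 50, 35 and 70 in control DSS libraries (log2 difference 0.75, limma adjusted p = 0.161, and 0.51 without both control replicate 2 libraries). HisRS had the lowest difference of the list under DSS (-0.13). It had the smallest p under sucrose (0.44, limma adjusted p = 0.137) and for the interaction (-0.57, limma adjusted p = 0.147). None of the 8 translation factor genes passed, and their median log2 difference was 0.131 under DSS and 0.114 under sucrose, and -0.023 and 0.161 without both control replicate 2 libraries. Their smallest p under sucrose was that of mEFTu2 (log2 difference 0.43, limma adjusted p = 0.232), whose interaction was -0.51 (limma adjusted p = 0.299).

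Of the 18 maintenance genes, 1 passed in 1 comparison, between genotypes under DSS, where 3.82% of all tested genes were called higher. scu, which encodes a subunit of mitochondrial ribonuclease P, rose in trxRNAi under DSS, with 1326, 1234 and 1165 in trxRNAi DSS libraries, against 888, 699 and 720 in control DSS libraries. Its log2 difference was 0.70 ± 0.16 (standard error, limma adjusted p = 0.00896), and the groups did not overlap. Once both control replicate 2 libraries were left out, it was 0.63 (limma adjusted p = 0.0479). Under sucrose scu had 1095, 1309 and 1003 in trxRNAi libraries, against 788, 824 and 949 in control libraries (log2 difference 0.41, limma adjusted p = 0.165). mtTFB2, a mitochondrial transcription factor gene, had 41, 38 and 40 in trxRNAi sucrose libraries, against 14, 15 and 23 in control sucrose libraries (log2 difference 1.14, limma adjusted p = 0.0778). Lower in trxRNAi under sucrose, also without passing, were mTerf3 (-0.63, limma adjusted p = 0.176), rswl (-0.60, 0.272) and PolrMT (-0.51, 0.268). At an unadjusted limma p under 0.05, 2 genes of the list were higher under sucrose and 3 were lower. Over all genes 9.27% were higher and 9.07% lower. TFAM, which packages mitochondrial DNA, had 503, 599 and 593 in trxRNAi DSS libraries, against 511, 404 and 431 in control DSS libraries (log2 difference 0.33, limma adjusted p = 0.23). The median of the list was 0.219 under DSS and -0.040 under sucrose, and 0.105 and -0.113 without both control replicate 2 libraries. Genes encoded by mitochondrial DNA were not analysed here.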

How the data were processed

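Libraries were made with the QuantSeq 3′ kit from sorted cells, per the labels' protocols. The submitters' processing notes name the dm6 build and, with no role or version, the tools limma, edgeR, DESeq2, DESeq, Bowtie2, HISAT2 and bcl2fastq. The counter, the annotation and the strand setting were not given in the sources used here. Values as deposited are whole numbers that appear to have been scaled per library by the authors, and are read here as a score: some libraries hold no gene at some whole numbers from 1 to 50, so read depth is unknown and no count test was run. With typical genes set level in this way, total RNA per library is not measurable.

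The scale was log2(value + 2), on which differences of low genes are understated. Genes with at least 10 in at least 3 libraries entered a limma 3.58.1 model (R 4.3.3, statmod 1.5.0) with 4 group means, an intensity trend and robust variance, checked on simulated data. P-values were adjusted over all 8399 genes by the Benjamini-Hochberg method at 0.05. Of 17617 identifiers, 17520 matched a symbol in the Ensembl annotation. Groups and replicate numbers came from the sample titles.

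The members, gene lists and tests were chosen with earlier results of these data known. Named genes were members past the threshold in any comparison, the 3 largest differences in each direction per comparison, the 3 highest and lowest by mean value, up to 4 genes per list by p, and trx. Genes outside this rule are named for their overlaps or correlations, chosen after their values were seen, and some that the rule took are left out. The subunit role of mRpL47 was added after the files were read. Alternatives covered scaling, pseudocount, filter, variance model, replicate block, libraries fitted and left-out libraries. No sequences were used here, so a planned search of promoters for motifs was not run.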

Additional observations from a re-analysis of the deposited data

Results flagged for a closer look

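The difference between genotypes differed between feeds for 2 members by the interaction test of limma. Over all genes 8.86% were called in either direction and 3.61% were called higher, so 2 of 72 is close to the background. For mRpS31 the interaction was 1.16 on the log2 scale (value + 2, limma adjusted p = 0.00505), from a difference of 0.60 under DSS and -0.56 under sucrose. For mRpS29 it was 1.01 (limma adjusted p = 0.0116), from 0.56 under DSS and -0.45 under sucrose. Neither gene's difference under sucrose passed the threshold by itself. The interaction of trx, the targeted gene, was 0.92 (limma adjusted p = 0.0416), a call lost in 8 of 12 left-out libraries and 14 of 24 alternatives, with overlapping values of the genotypes under DSS, and its part in these results was not tested.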

How the results depend on the processing

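Read depth is unknown, so no counting error is given. With 3 libraries a group, differences of single members under 0.495 mostly lie inside the 95% interval. Of the summaries over members and groups, 223 values under alternatives stayed near those reported and 49 did not, and of single-gene values 830 kept direction and side of the threshold, 24 newly passed, 58 no longer passed and 6 reversed. Unless stated, the cause was not tested.

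Under DSS, 3 members were called between genotypes. The count was 1 when libraries were rescaled to equal totals, 5 when rescaled to equal protein-coding totals without cytosolic ribosomal proteins, 1 without the filter, 1 without trend and robust variance, 1 with only the compared libraries, and 5 with the replicate block. Leaving out single libraries gave counts of 1 to 5 and medians of 0.119 to 0.484. Leaving out both control libraries of a number, an alternative chosen after seeing the data, gave 1 call and a median of 0.119 for number 2, and 6 calls and 0.484 for number 3. mRpL19 kept its call in 24 of 25 alternatives, mRpS31 lost it in 11 and mRpS29 in 15.

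Under sucrose, where 0 were called, both rescalings to equal totals (of all or of those protein-coding values) gave 2 (mRpL2 and mRpL54). The replicate block gave 1 (mRpL2), and left-out libraries gave 0 to 2 with medians of -0.010 to 0.259. Leaving out both control libraries gave 2 for number 1 and 1 for number 3. Between feeds in trxRNAi, where 1 was called, both rescalings to equal totals, no filter and no trend gave 0. Median-of-ratios rescaling kept the call of mRpS31 (limma adjusted p = 0.0456). Only the compared libraries gave 2, and left-out libraries gave 0 to 2 with medians of 0.137 to 0.244. Leaving out both control libraries gave 0 for number 1, 1 for number 2 (mRpL19 in place of mRpS31) and 2 for number 3. Between feeds in control, left-out libraries gave 0 to 1 calls and medians of -0.117 to 0.223. The interaction count of 2 became 1 (mRpS31) under equal totals, with 0.0529 as the adjusted p of mRpS29, and left-out libraries gave 2 to 3 with medians of -0.019 to 0.283. With equal totals the median of all genes was -0.134 between genotypes under DSS, 0.102 under sucrose, 0.153 between feeds in control and -0.228 for the interaction, and the members' medians were then 0.159, 0.209, 0.200 and -0.095.

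Shares of protein-coding values without cytosolic ribosomal proteins were 0.554% in trxRNAi DSS libraries, 0.447% in control DSS libraries, 0.488% in trxRNAi sucrose libraries and 0.439% in control sucrose libraries. Left-out libraries gave shares of the total from 0.244 to 0.256% (trxRNAi DSS), 0.221 to 0.258% (control DSS), 0.232 to 0.241% (trxRNAi sucrose) and 0.190 to 0.224% (control sucrose). Single values that reversed were those of mRpL44 between feeds in trxRNAi, from -0.282 to 0.013 over left-out libraries (0.012 without trxRNAi sucrose replicate 2, 0.013 without trxRNAi DSS replicate 3). The difference of mRpS23 between genotypes under DSS lay from -0.417 to 0.013 (without control DSS replicate 1 or both controls numbered 1), and that of trx from -0.300 to 0.036 (without control DSS replicate 2 or both controls numbered 2).

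Replicate numbers were not taken to pair the libraries, as not every pair exceeded 0.1: same-numbered libraries of different groups correlated in their deviations at -0.2 to 0.276 (18 pairs), with 7 over 0.1, and libraries of different number at -0.291 to 0.353 (36 pairs), with 6 over 0.1. Between feeds in control the same-numbered pairs had 0.082, 0.264 and 0.276 for numbers 1, 2 and 3. The replicate block left the interaction count at 2 and changed which member passed between feeds in trxRNAi, mRpL19 in place of mRpS31.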
